A study of Saccharomyces cerevisiae with 24 samples.

Results

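Budding yeast (Saccharomyces cerevisiae) that lacked both SNF1 and TOR1, the strain snf1Δtor1Δ, was compared between ammonia-limited (N-lim) and glucose-limited (C-lim) chemostats. The comparison rested on the 6 arrays whose titles name this strain, 3 per medium, of 24 arrays in the series. The other 18 arrays held the reference strain (WT in the titles), snf1Δ and tor1Δ, each with 3 arrays per medium, and were used here to set the response of the double deletion beside theirs. Each array measured total RNA from cells taken at steady state from an aerobic culture of 0.5 L in a 1.2 L bioreactor at 30 °C, pH 5.0 and a dilution rate of 0.1 per h. Glucose stood at 10 g/L in the C-lim medium, and ammonium sulfate at 1 g/L in the other. The submitters describe 3 biological replicates for each strain. How many independent isolates of each deletion strain were grown is not given in the sources used here.

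In a chemostat the dilution rate sets the growth rate, so both media hold the cells at the same growth rate while a different nutrient runs short. Snf1, the AMP-activated protein kinase of yeast, is active when glucose is scarce, relieves repression by Mig1, and works through the activators Cat8, Sip4 and Adr1 on genes for the use of ethanol, acetate, fatty acids and other sugars. Tor1 is a kinase of TOR complex 1 (TORC1), which in nitrogen-rich cells keeps the GATA activators Gln3 and Gat1 from nitrogen catabolite genes, and keeps the stress activators Msn2 and Msn4 and the retrograde activators Rtg1 and Rtg3 out of the nucleus. TORC1 can also be built with Tor2, so a tor1Δ strain still has a TORC1.

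The SNF1 probe set (YDR477W) read log2 2.15 on all 6 arrays of the double deletion, against group means of 8.75 (C-lim) and 8.90 (N-lim) in the reference strain. The TOR1 probe set (YJR066W) read 2.26 to 2.27, against 6.94 and 7.86. TOR2 (YKL203C) was measured at 8.20, 8.16 and 8.24 in C-lim and 8.52, 8.20 and 8.30 in N-lim, a difference that did not pass the test (limma, adjusted p = 0.15). Without N-lim replicate 2 it passed (0.22, limma adjusted p = 0.0461). All values are the deposited log2 intensities, which are relative to the other RNA on the same array, so a change in total RNA per cell is not measured. Across 5449 genes, the arrays of 1 medium correlated at r = 0.9967 to 0.9985 in C-lim and 0.9956 to 0.9983 in N-lim. The median SD between the 3 arrays was 0.073 in C-lim and 0.101 in N-lim. The number of arrays limits the precision.

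Loss of both kinases left a broad response to the limiting nutrient. In the double deletion 1925 genes were higher and 1266 lower in ammonia limitation (limma on the deposited log2 values of all 24 arrays, Benjamini-Hochberg adjusted p under 0.05), which is 58.6% of the genes tested, 35.3% higher and 23.2% lower. Of these, 159 genes (2.92%) were higher and 279 (5.12%) lower by at least 2-fold, 8.04% together. The median difference over all genes was 0.06 on the log2 scale. The 3 N-lim values did not overlap the 3 C-lim values in 3461 genes (63.5%), 3065 of them among the genes called. By the same fit 67.2% of genes were called in the reference strain, 55.4% in snf1Δ and 64.9% in tor1Δ. The at least 2-fold calls were 757 in the reference (13.9%), of which 376 were higher (6.9%) and 381 lower (6.99%). They were 447 in snf1Δ (8.2%) and 691 in tor1Δ (12.7%).

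Gene by gene, the response of the double deletion differed from that of snf1Δ in 268 genes (4.92%), from that of tor1Δ in 2255 (41.4%) and from that of the reference in 2543 (46.7%), each by limma's test of the difference between the responses. The responses share no array. The difference from the reference was at least 2-fold in 530 genes (9.73%), upwards in 302 (5.54%) and downwards in 228 (4.18%). Under a block for strain and replicate number 17 genes were higher and 13 lower against snf1Δ, and 608 higher and 786 lower against tor1Δ. In the block fit, arrays whose number occurs in only 1 medium of their strain add nothing to its response. The response of tor1Δ then rests on number 9 alone, and that of snf1Δ on numbers 10 and 11. Over 5158 genes, leaving out those at the bottom of the scale, the response of the double deletion correlated at r = 0.92 with that of snf1Δ, 0.661 with that of tor1Δ and 0.646 with that of the reference, a description across genes, which are not independent replicates. The SD of the response over these genes was 0.706 in the double deletion, 0.727 in snf1Δ, 1.12 in tor1Δ and 1.13 in the reference.

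**Figure D1:**
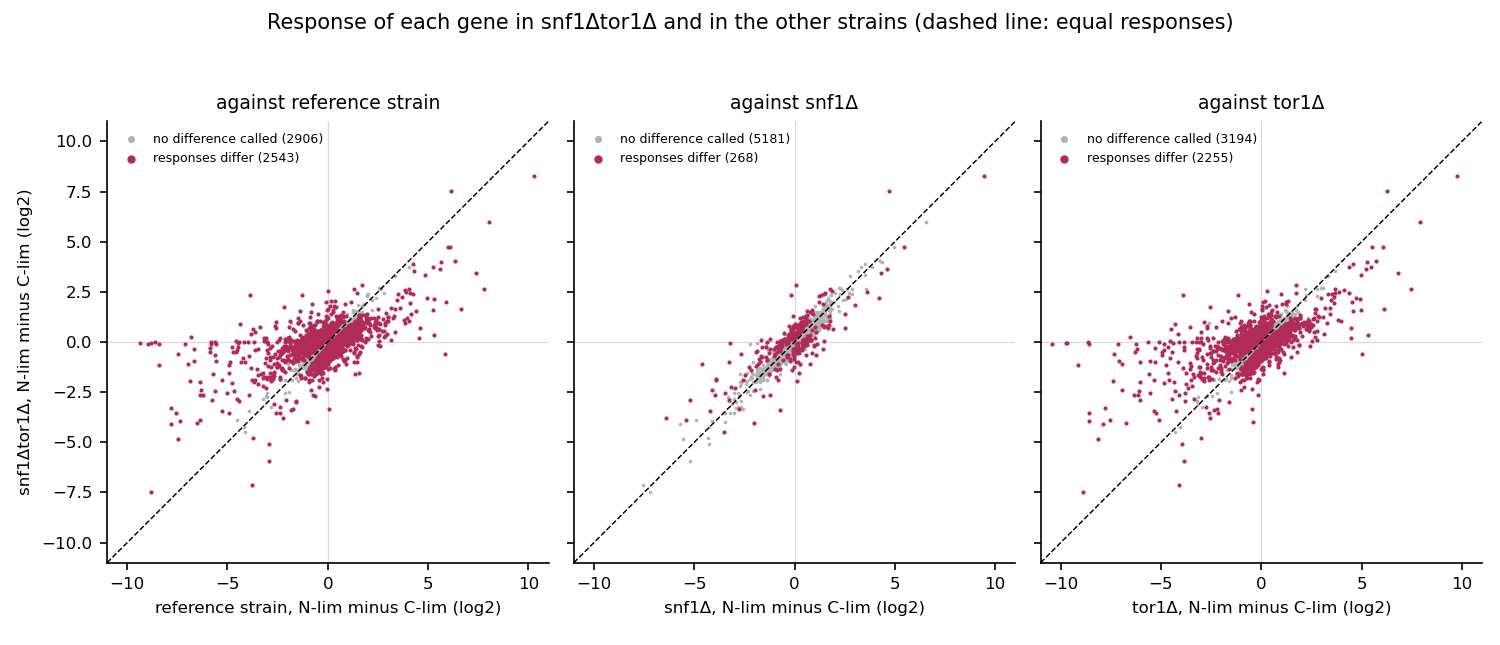
Log2 N-lim minus C-lim difference of each gene in the double deletion (vertical) against the same difference in the reference strain, snf1Δ and tor1Δ (horizontal, 1 panel each). Points are genes, coloured by whether the difference between the 2 responses passed limma's test; 2906 genes were not called against the reference, 5181 against snf1Δ and 3194 against tor1Δ.

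Among the 20 genes with the largest rise were transporter, enzyme and regulator genes of nitrogen use, glucose-induced genes such as HXT1 and MIG2, the mating genes FIG1 and MF(ALPHA)1, and ALR2, a magnesium transporter gene. OPT2 (YPR194C), an oligopeptide transporter gene, read 2.25 on all 3 C-lim arrays and 10.62, 10.39 and 10.63 on the N-lim arrays. A mean under log2 3 was taken as the bottom of the scale, so its rise was at least 187-fold (limma, adjusted p = 3e-19), against at least 747-fold in the reference. HXT1 (YHR094C), which encodes a low-affinity glucose transporter induced by abundant glucose, read 2.72, 2.81 and 3.10 in C-lim and 10.38, 10.40 and 10.45 in N-lim. The groups of both genes lay far apart, and HXT1 rose at least 170-fold (adjusted p = 5.48e-19), against at least 58.4-fold in the reference. DAL80 (YKR034W), a GATA repressor of nitrogen catabolite genes that is itself such a target, read 4.55, 4.75 and 4.61 in C-lim and 10.54, 10.66 and 10.64 in N-lim. It rose 62.9-fold (log2 5.97 ± 0.12 SE, n = 3 a group, limma adjusted p = 2.69e-17), less than the 259-fold of the reference (difference −2.04 ± 0.17, adjusted p = 1.94e-08). PDC5, a pyruvate decarboxylase gene, rose 27.0-fold from 6.04, 6.52 and 6.25 to between 10.99 and 11.08. MIG2 (YGL209W), a glucose-induced repressor related to Mig1, rose 13.4-fold from 5.12, 5.06 and 4.63 to 8.67, 8.77 and 8.59. Neither gene's groups overlapped, and both rises were smaller than in the reference, by 1.24 ± 0.23 and 1.51 ± 0.25 on the log2 scale (adjusted p = 0.000206 and 5.85e-05).

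Among the 20 largest falls were mitochondrial carriers, sugar transporters, genes for the use of acetate and fatty acids, pyridoxine genes and the glutamine permease gene GNP1. SFC1 (YJR095W), the mitochondrial succinate and fumarate carrier, read 10.13, 10.37 and 9.93 in C-lim and 2.74, 2.53 and 2.74 in N-lim, a fall of at least 141-fold (limma, adjusted p = 2.09e-17) against at least 308-fold in the reference. CRC1 (YOR100C), the mitochondrial carnitine carrier, read 10.44, 10.69 and 9.84 in C-lim and 3.03, 3.34 and 3.27 in N-lim. Its fall of 138-fold (log2 −7.11 ± 0.18, adjusted p = 9.32e-16) exceeded the 13.6-fold of the reference (difference −3.35 ± 0.26, adjusted p = 6.26e-09). In snf1Δ CRC1 read 10.27, 10.75 and 10.63 in C-lim and 2.77, 2.98 and 3.18 in N-lim. The N-lim means of CRC1 lay close together, 3.29 in the reference among them, while its C-lim mean in the reference was 7.05. HXT7 (YDR342C), a high-affinity glucose transporter gene whose probe set cannot separate it from its near-identical copy HXT6, read 12.19, 12.06 and 12.19 in C-lim and 6.26, 5.92 and 6.46 in N-lim. It fell 60.8-fold, against 7.67-fold in the reference (difference −2.99 ± 0.22, adjusted p = 3.52e-09). The reference means of HXT7 were 12.07 in C-lim, within the range of the double deletion, and 9.14 in N-lim, above all 3 of its arrays. JEN1, the lactate and pyruvate permease, fell 14.7-fold in the double deletion against 83.9-fold in the reference. The N-lim arrays of the reference read 5.79, 4.76 and 4.10 for JEN1. In the double deletion GNP1 fell by 3.46 ± 0.14 on the log2 scale.

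**Figure D2:**
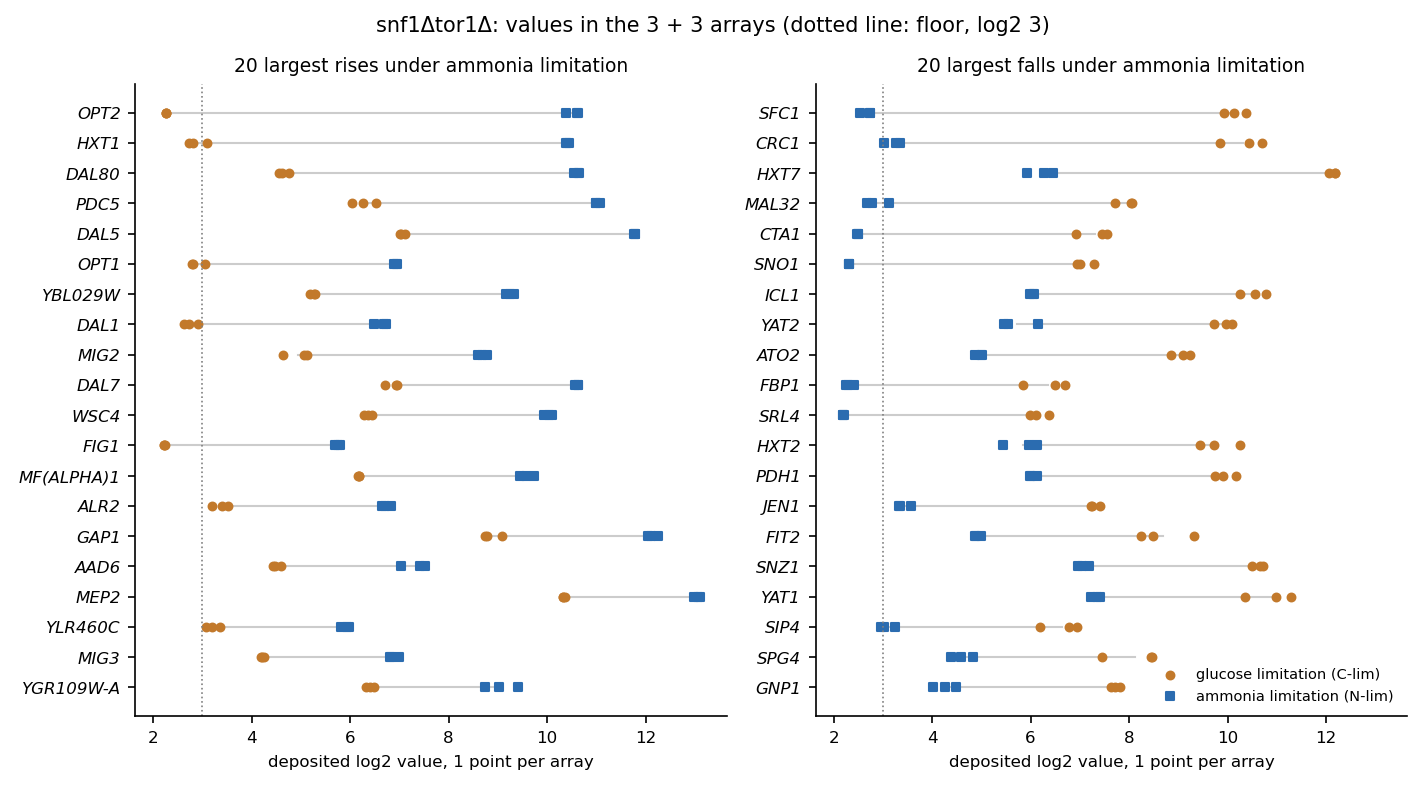
Deposited log2 values (horizontal) of the 20 genes with the largest rise (left) and the 20 with the largest fall (right) in the double deletion, 1 point per array, circles for C-lim and squares for N-lim, joined by a line between the group means; the dotted line at log2 3 is the bottom of the scale. No gene's circles overlap its squares, and OPT2, HXT1 and SFC1 are among the genes whose mean in 1 medium lies below the dotted line.

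Of the 376 genes that rose at least 2-fold in the reference, 324 (86.2%) also rose in the double deletion, 110 of them at least 2-fold. 36 were not called and 16 fell. The median rise of these genes was 1.48 in the reference and 0.76 in the double deletion. Their median level in C-lim was 6.70 in the reference and 7.49 in the double deletion, and in N-lim 8.64 and 8.33. Of the 381 genes that fell at least 2-fold in the reference, 248 (65.1%) also fell in the double deletion, 132 of them at least 2-fold, 109 were not called and 24 rose. The median fall was −1.90 in the reference and −0.61 in the double deletion. Here the C-lim levels stood apart (medians 8.99 and 7.45) and the N-lim levels did not (6.37 and 6.40). Seen from the other side, 129 of the 159 genes that rose at least 2-fold in the double deletion (81.1%) and 254 of the 279 that fell (91.0%) were called in the same direction in the reference. Of those 279, 230 differed between the responses, 159 of them with the larger fall in the double deletion. Since each set was chosen by its size in 1 strain, a smaller value in the other strain is partly fixed by the choice.

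**Figure D3:**
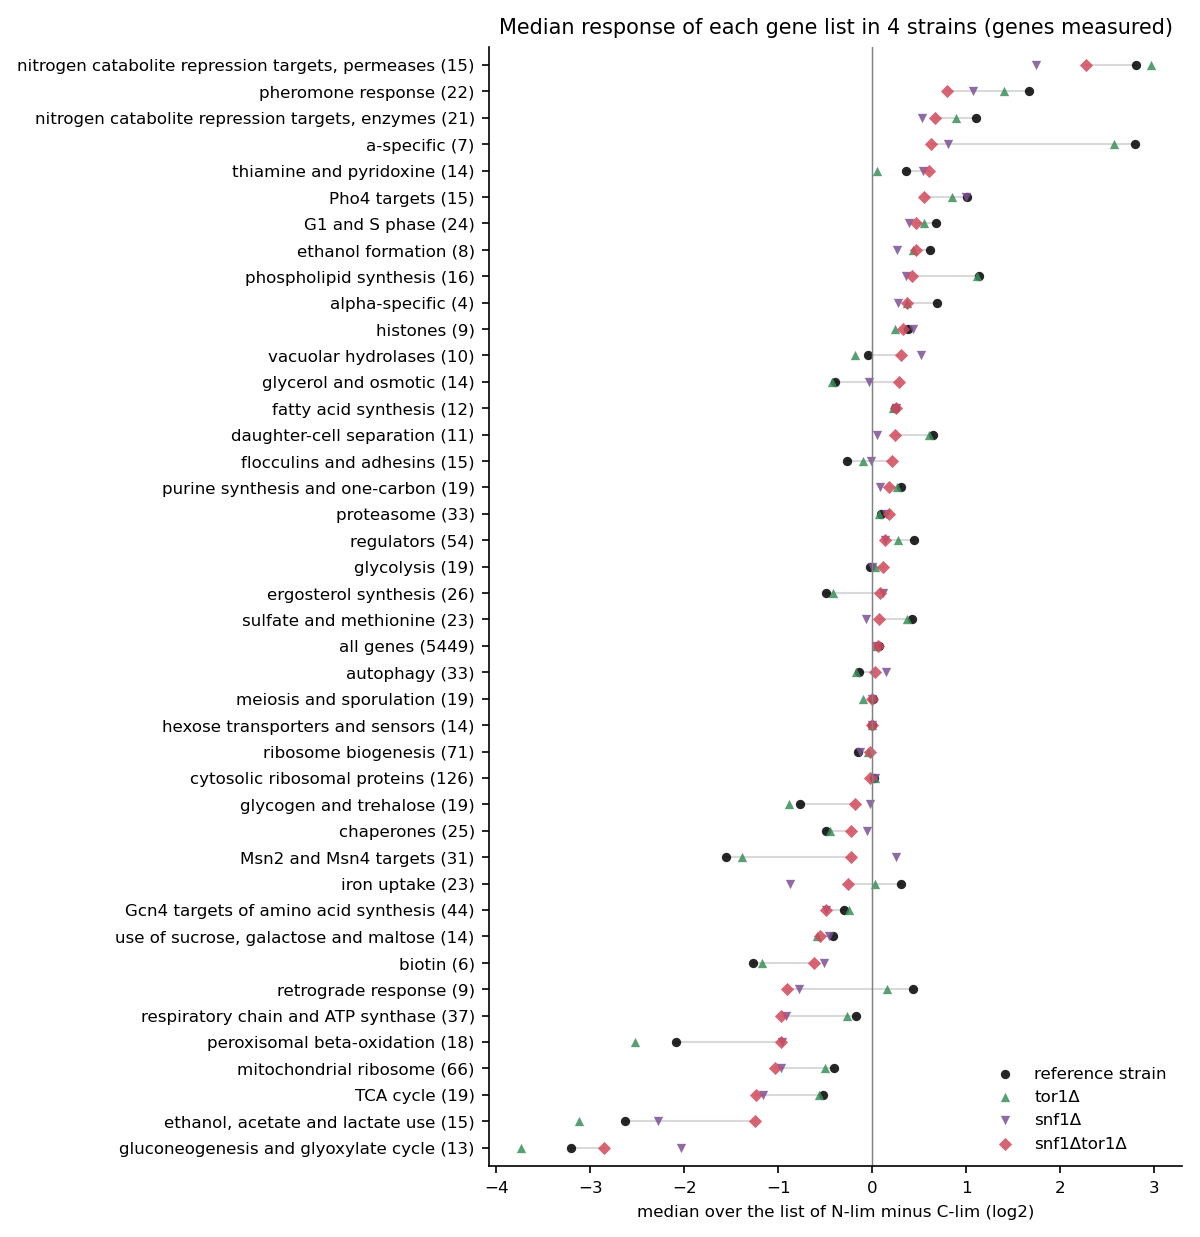
Median log2 N-lim minus C-lim difference of 41 gene lists and of all genes, in the double deletion and in the other strains. The nitrogen permeases stand highest and the gluconeogenesis list lowest in the double deletion, the Msn2 and Msn4 list lies at −0.23 there against −1.56 in the reference, and the mitochondrial lists lie further below 0 than in the reference.

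Counts over a gene list are to be read against all genes, of which 35.3% were higher and 23.2% lower in the double deletion, and 17.9% lay above and 28.8% below the response of the reference.

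Nitrogen catabolite repression holds down permeases and enzymes of poor nitrogen sources while good sources last. All 15 permeases of the list rose in the double deletion, 13 of them at least 2-fold, with a median difference of 2.28. The median over all genes was 0.06, and 35.3% of them were higher. In the reference 13 rose and 1 fell (median 2.81), and the median was 1.74 in snf1Δ and 2.96 in tor1Δ. The mean level of the list was 6.600, 6.676 and 6.636 on the C-lim arrays and 9.263, 9.196 and 9.301 on the N-lim arrays. In the reference it was 6.198, 6.370 and 6.274 in C-lim and 9.750, 9.851 and 9.751 in N-lim, so the double deletion lay higher in C-lim and lower in N-lim, with no overlap in either medium. DAL5 (YJR152W), the allantoate permease, rose 26.4-fold from 7.02, 7.12 and 7.03 to 11.79, 11.77 and 11.78 (adjusted p = 1.08e-15), less than in the reference by 1.36 ± 0.18 (adjusted p = 4.53e-06). GAP1 (YKR039W), the general amino acid permease, read 8.77, 8.75 and 9.09 in C-lim and 12.12, 12.05 and 12.26 in N-lim. It rose by 3.27 ± 0.17 (9.68-fold, adjusted p = 1.36e-11), and the test found no difference from the reference rise of 3.35 (difference −0.08 ± 0.24, adjusted p = 0.845). MEP2 (YNL142W), the high-affinity ammonium permease, read 10.33, 10.32 and 10.36 in C-lim and 12.98, 13.06 and 13.10 in N-lim, with no overlap. Its rise of 2.71 ± 0.12 was likewise not separated from the 2.56 of the reference (adjusted p = 0.552).

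Of 21 enzymes under the same repression, 15 rose and 3 fell (median 0.67, against 1.11 in the reference, where 16 rose and 5 fell). The allantoin enzymes rose most. DAL1, the allantoinase gene, rose at least 12.4-fold, and DAL7, a malate synthase gene of allantoin use, rose 13.4-fold. DAL3 (YIR032C), a ureidoglycolate lyase gene, rose from 7.33, 7.46 and 7.61 to 10.02, 10.19 and 10.12. Its groups did not overlap, and its rise of 2.64 ± 0.14 was larger than the 1.32 of the reference (difference 1.32 ± 0.20, adjusted p = 2.24e-05). The genes that fell were GDH3 (a glutamate dehydrogenase), ARG4 (argininosuccinate lyase) and CAR2 (ornithine aminotransferase), the last losing its call without C-lim replicate 1, C-lim replicate 2 or N-lim replicate 3. ARG4 moved the opposite way in the reference, −0.49 ± 0.06 in the double deletion against 0.67.

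Amino acid synthesis genes activated by Gcn4 mostly fell. Of 44, 35 were lower and 2 higher (median −0.49), against 27 lower and 9 higher in the reference (median −0.30). Lower in the double deletion were SNO1 and SNZ1 of pyridoxine synthesis, which also answer to Gcn4, by at least 16.9-fold and by 11.8-fold, and further ARO4, HOM3 and SER3. SER33 rose by 0.29 ± 0.07, and LYS4, the other gene that was higher, lost its call without N-lim replicate 1. GCN4 itself read 12.90, 12.94 and 12.90 in C-lim and 12.77, 12.83 and 12.90 in N-lim (difference −0.08, adjusted p = 0.245). Of 23 genes of sulfate and methionine use, 10 rose and 6 fell (median 0.07), against 18 and 4 in the reference (median 0.42). These shares and the median lie close to those of all genes in the double deletion (35.3%, 23.2% and 0.06). SUL1, a sulfate permease gene, fell by 2.92 ± 0.19, more than the 1.58 by which it fell in the reference (adjusted p of the difference 0.000552).

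Gluconeogenesis and the glyoxylate cycle rebuild sugar from compounds with few carbons and are shut off when glucose is plentiful. In the double deletion 12 of 13 genes of this list fell and 1 rose, every one at least 2-fold, with a median of −2.85, against −3.21 in the reference, −2.04 in snf1Δ and −3.74 in tor1Δ. The mean level of the list was 9.055, 9.170 and 8.787 in C-lim and 6.350, 6.399 and 6.293 in N-lim. The reference arrays ran from 9.994 to 10.121 in C-lim and from 6.679 to 6.789 in N-lim, so the double deletion lay lower in both media.

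Members of the list did not differ from the reference in 1 direction. The difference between responses was above 0 in 7 members and below 0 in 5, and with dim genes left out these counts were 4 and 5. FBP1 (YLR377C), fructose-1,6-bisphosphatase, read 6.71, 6.50 and 5.85 in C-lim and 2.29, 2.41 and 2.25 in N-lim, a fall of at least 10.2-fold against at least 54.1-fold in the reference. PCK1 (YKR097W), phosphoenolpyruvate carboxykinase, read 9.17, 9.03 and 9.36 in C-lim and 5.91, 5.96 and 5.44 in N-lim. These groups did not overlap for either gene, and PCK1 fell 10.7-fold (log2 −3.41 ± 0.13, adjusted p = 3.32e-13), more than in the reference (log2 −1.82, difference −1.60 ± 0.19, adjusted p = 1.59e-06). MDH2, the cytosolic malate dehydrogenase, also fell further than in the reference (−3.23 ± 0.13 against −2.40). ICL1 (YER065C), isocitrate lyase of the glyoxylate cycle, read 10.56, 10.78 and 10.26 in C-lim and 5.996, 6.045 and 6.071 in N-lim. Its fall of 22.5-fold (log2 −4.49 ± 0.17) was not separated from the reference fall of −4.14 (difference −0.35 ± 0.23, adjusted p = 0.236). DIC1, the mitochondrial dicarboxylate carrier, was the member that rose, by 1.52 ± 0.14, where the reference fell by 0.81.

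MLS1 (YNL117W), the malate synthase that works beside Icl1, read 9.18, 9.40 and 8.79 in C-lim and 8.01, 8.07 and 7.94 in N-lim. The groups did not overlap. It fell by 1.12 ± 0.15 (adjusted p = 2.81e-06), while it rose by 0.92 in the reference and by 0.75 in snf1Δ.

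Of 15 genes for the use of ethanol, acetate and lactate, 10 fell and 2 rose (median −1.24), against 14 and 1 in the reference (median −2.63). 10 members differed from the reference response upwards and 3 downwards. ADH2, the alcohol dehydrogenase that oxidises ethanol, and ADY2, an acetate transporter, were at the bottom of the scale in both media in the double deletion, where the reference means in C-lim were 13.11 and 10.97. ACH1, an acetyl-CoA hydrolase and CoA transferase gene, read 12.18, 12.32 and 11.65 in C-lim and 9.022, 9.117 and 8.998 in N-lim. It fell 8.03-fold, further than the 2.96-fold of the reference (difference −1.44 ± 0.19, adjusted p = 5.09e-06). In snf1Δ ACH1 read 11.86, 12.08 and 11.80 in C-lim and 8.93, 9.23 and 8.85 in N-lim. The aldehyde dehydrogenase genes ALD2 and ALD3 rose in the double deletion, by 1.05 ± 0.14 and 0.81 ± 0.19, the second against a reference fall of 2.63.

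Peroxisomal beta-oxidation breaks down fatty acids. Of its 18 genes 13 fell and 2 rose, as FAA1 (fatty acyl-CoA synthetase) and OAF1 (a regulator of these genes) were higher, with a median of −0.97 against −2.09 in the reference. CTA1, the peroxisomal catalase, fell at least 19.7-fold, against at least 147-fold in the reference. POT1, the thiolase, fell by 3.09 against 2.69, while POX1 (acyl-CoA oxidase) fell by 2.29 against 3.09 and FOX2 (the multifunctional enzyme) by 2.08 against 3.49.

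Yeast takes up glucose through a family of hexose transporters of high and low affinity. Of 14 transporters and sensors, 5 of which were at the bottom of the scale in both media, HXT1, HXT3 and RGT2 rose and HXT7, HXT2, HXT5, HXT4 and SNF3 fell. RGT2, the low-affinity glucose sensor, lost its call when the 6 arrays of the double deletion were fitted alone. HXT2 (YMR011W) read 9.72, 9.43 and 10.26 in C-lim and 5.44, 5.97 and 6.14 in N-lim, a fall of 15.5-fold against 167-fold in the reference (difference 3.44 ± 0.36, adjusted p = 3.49e-07). HXT5, a transporter of slow-growing cells, fell 4.05-fold against 83.8-fold. HXT4 (YHR092C) read 9.54, 10.09 and 9.03 in C-lim and 7.95, 7.91 and 8.22 in N-lim. Its groups did not overlap, and it fell by 1.53 ± 0.24 (adjusted p = 1.92e-05) where it rose by 1.54 in the reference. HXT3, a low-affinity transporter, rose by 1.52 ± 0.19 against 4.42 in the reference, with C-lim values of 10.21, 10.50 and 9.51 against a reference mean of 7.61.

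Of 14 genes for sucrose, galactose and maltose, 8 fell and 2 rose (MPH2 and GAL80), with a median of −0.56 against −0.42 in the reference. MAL32, a maltase gene whose probe set cannot separate it from its copy MAL12, fell at least 30.8-fold. Glycolysis moved little as a list, with 8 of 19 genes higher and 3 lower (median 0.12), and 8 and 5 in the reference (median −0.02). HXK1 (YFR053C), the hexokinase expressed without glucose, was its largest change, from 12.04, 11.94 and 11.89 to 8.56, 8.56 and 8.68. It fell 10.3-fold with no overlap, against 3.30-fold in the reference (difference −1.64 ± 0.11, adjusted p = 6.65e-10). GLK1 (glucokinase) and PFK26 (6-phosphofructo-2-kinase) also fell in the double deletion. PFK26 lost its call without N-lim replicate 3 and with the arrays of the double deletion alone. In ethanol formation 6 of 8 genes rose, PDC5 most, and ADH5 and ADH3 fell.

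Mitochondrial genes fell together, and further than in the reference. Among 37 genes for respiratory complexes and ATP synthase, 36 fell and 1 rose, with a median of −0.97, where 23.2% of all genes were lower. In the reference 21 fell and 2 rose, with a median of −0.17. In snf1Δ 36 fell and 1 rose, with a median of −0.92. The response of the double deletion differed from that of snf1Δ in 1 member. It differed from that of the reference in 37 members, downwards in 35 and upwards in 2, against 28.8% and 17.9% of all genes. The mean level of the list was 11.523, 11.546 and 11.470 in C-lim and 10.486, 10.537 and 10.540 in N-lim. In the reference it was 11.253, 11.289 and 11.253 in C-lim and 10.947, 10.967 and 10.898 in N-lim, so that the double deletion lay above it in C-lim and below it in N-lim. QCR2 (YPR191W), a core subunit of the cytochrome bc1 complex, read 11.67, 11.58 and 11.54 in C-lim and 10.27, 10.39 and 10.40 in N-lim. It fell by 1.24 ± 0.05 (adjusted p = 2.49e-13), against 0.27 in the reference (difference −0.97 ± 0.07, adjusted p = 1.6e-09). COX5B, the cytochrome oxidase isoform of low oxygen, was the member that rose, by 0.59 ± 0.11 against 2.45 in the reference. NDE2, an external NADH dehydrogenase, had the largest fall of the list, 3.42 ± 0.18. Unlike most members, it fell less than in the reference, where it fell by 5.27.

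Of 19 TCA cycle genes, 18 fell, 12 of them at least 2-fold (median −1.24, against −0.52 in the reference and −1.16 in snf1Δ). PYC1, pyruvate carboxylase, was higher. It lost its call without C-lim replicate 3, with the replicate block, with median-centred arrays and with the arrays of the double deletion alone. SDH2 (YLL041C), the iron-sulfur subunit of succinate dehydrogenase, read 12.37, 12.31 and 12.24 in C-lim and 10.15, 10.42 and 10.38 in N-lim. It fell 3.97-fold with no overlap, against 1.92-fold in the reference (difference −1.05 ± 0.10, adjusted p = 1.48e-07). CIT3, a mitochondrial citrate and methylcitrate synthase gene, fell by 2.63 ± 0.23, less than in the reference, where it fell at least 70.3-fold.

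All 66 measured genes of the mitochondrial ribosome were lower, 36 of them at least 2-fold, between −1.88 and −0.49 with a median of −1.03. In the reference 52 were lower and 1 higher (median −0.40). For 61 members the response differed downwards from that of the reference and for none upwards, and none of the 66 was called in the difference from snf1Δ, whose median was −0.97. The mean level was 9.397, 9.390 and 9.409 in C-lim against 8.848, 9.071 and 8.991 in the reference. In N-lim it was 8.325, 8.434 and 8.356 against 8.590, 8.525 and 8.600. MRPL4 (YLR439W), a protein of the large mitochondrial subunit, showed the largest change, from 9.25, 9.24 and 9.25 to 7.23, 7.49 and 7.37, and fell 3.69-fold (adjusted p = 2.1e-12).

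HAP4 (YKL109W), the regulated subunit of the Hap2/3/4/5 activator of respiratory genes, read 10.86, 10.85 and 10.80 in C-lim and 9.148, 8.911 and 9.005 in N-lim. The groups lay far apart. HAP4 fell 3.52-fold (log2 −1.81 ± 0.06, adjusted p = 1.04e-13), against −0.30 in the reference and −1.86 in snf1Δ, and the difference from the reference was −1.52 ± 0.09 (adjusted p = 2.57e-10).

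The retrograde response raises glutamate-producing enzymes when mitochondria or good nitrogen sources fail. Of its 9 genes 6 fell and 2 rose in the double deletion (median −0.91), where 6 rose and 1 fell in the reference (median 0.44). In snf1Δ 6 fell and 1 rose (median −0.77). The response of the double deletion was called different from that of snf1Δ in none of the 9. From that of the reference it differed downwards in 8 members and upwards in 1. CIT2 (YCR005C), the peroxisomal citrate synthase and usual marker of this response, read 12.95, 13.06 and 12.64 in C-lim and 11.904, 12.019 and 11.997 in N-lim. It fell by 0.91 ± 0.10 (adjusted p = 3.1e-07) while it rose by 0.86 in the reference (difference −1.77 ± 0.14, adjusted p = 1.08e-08). IDH1 (YNL037C), a subunit of NAD-dependent isocitrate dehydrogenase, read 11.57, 11.63 and 11.47 in C-lim and 10.19, 10.39 and 10.25 in N-lim. Its fall of 1.28 ± 0.07 also stood against a reference rise of 0.37, and neither gene's groups overlapped. IDH2 fell by 1.14 and ACO1, aconitase, by 0.95. The members that rose were MKS1, a negative regulator of the pathway, and PYC1, which lost its call under several alternatives.

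**Figure D4:**
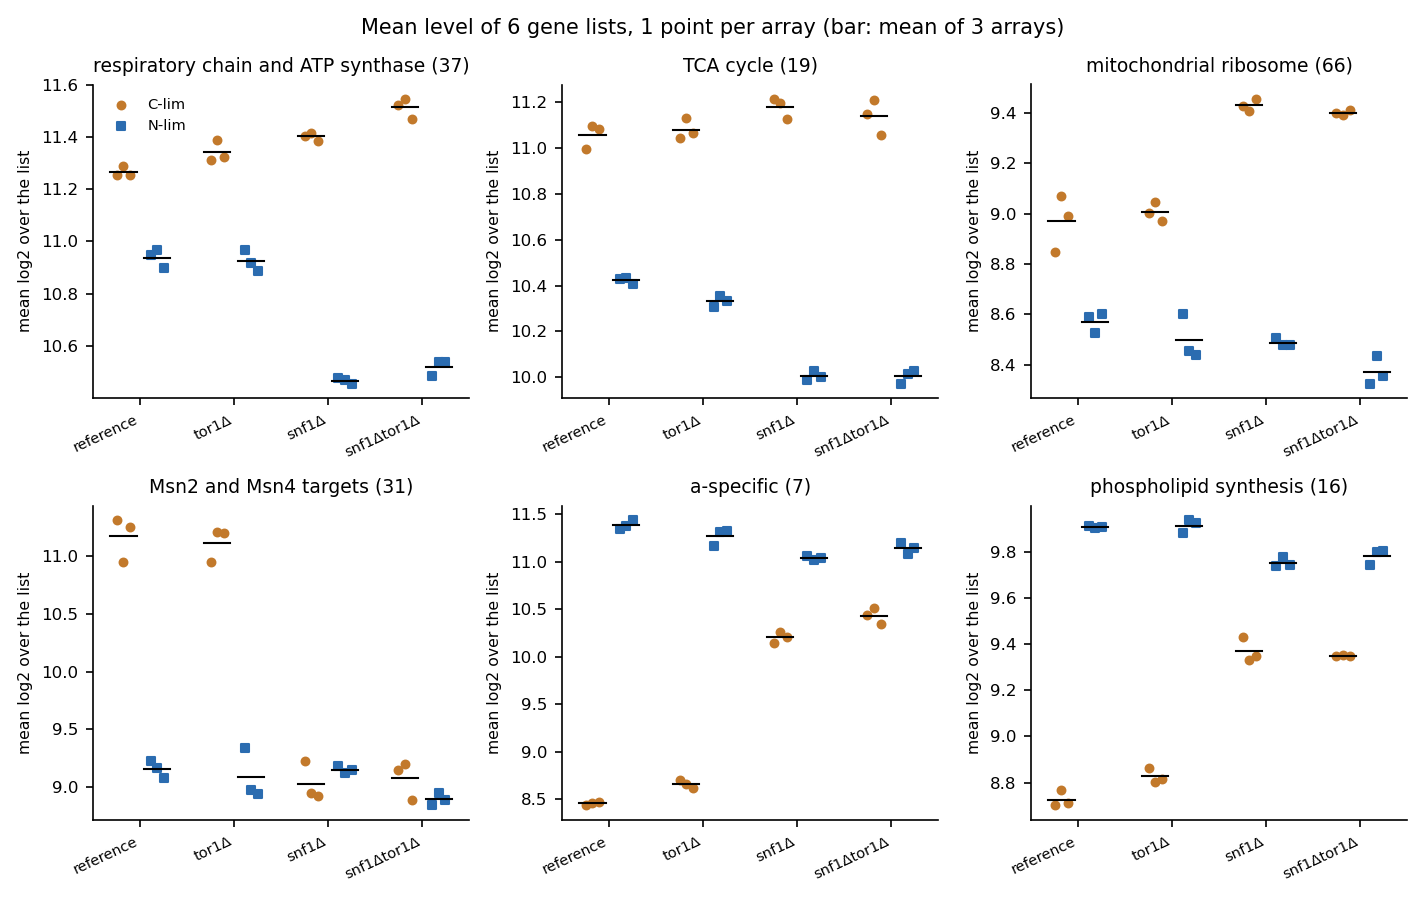
Mean log2 level of 6 gene lists on each of the 24 arrays, by strain and medium; bars are the means of 3 arrays and the vertical axes do not start at 0. In the double deletion, as in snf1Δ, the respiratory, TCA and mitochondrial ribosome lists drop further from C-lim to N-lim than in the reference, and the Msn2 and Msn4 list is low in C-lim, while the a-specific list is already high in C-lim.

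Targets of the stress activators Msn2 and Msn4 did not show the fall seen in the reference. Of 31 targets, 9 rose and 10 fell in the double deletion (median −0.23), against 0 and 29 in the reference (median −1.56), and with median-centred arrays 16 fell. Of all genes 35.3% rose and 23.2% fell in the double deletion. In snf1Δ 15 of the 31 targets rose and 9 fell (median 0.26). The response of the double deletion differed from that of snf1Δ downwards in 3 members. From that of the reference it differed upwards in 27 members and downwards in 1. In C-lim the mean level of the list was 9.142, 9.194 and 8.885, against 11.314, 10.954 and 11.257 in the reference. In N-lim the values were 8.839, 8.950 and 8.888 against 9.226, 9.166 and 9.078, so the strains stood apart mainly in C-lim. MSN4 (YKL062W) itself read 6.55, 6.81 and 6.53 in C-lim and 6.65, 6.64 and 6.78 in N-lim. These groups overlapped, and the difference of 0.06 ± 0.10 did not pass (adjusted p = 0.63), where the reference rose from 5.07 to 7.61 (difference between responses −2.48 ± 0.14, adjusted p = 9.62e-11). MSN2 rose by 0.67 ± 0.06, against 0.48 in the reference. CTT1 (YGR088W), cytosolic catalase, moved in the opposite direction to the reference, from 5.63, 5.48 and 5.30 to 7.09, 7.32 and 7.19. It rose by 1.73 ± 0.20 (adjusted p = 4.5e-07), against a reference fall from 8.65 to 6.48, and the difference was 3.91 ± 0.28 (adjusted p = 2.28e-09). In snf1Δ CTT1 read 7.09, 6.27 and 6.29 in C-lim and 7.97, 8.12 and 8.11 in N-lim. DDR48, a DNA damage response gene, rose in the double deletion by 1.67 ± 0.09 against 0.01 in the reference. SIP18, a hydrophilin gene, fell by 1.92 ± 0.42 against 6.89.

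Storage carbohydrate genes followed a similar order. Of 19 genes of glycogen and trehalose, 8 fell and 4 rose (median −0.18), against 14 and 4 in the reference (median −0.76). The median was −0.02 in snf1Δ, and among all genes 23.2% were lower and 35.3% higher in the double deletion. TPS3, TPS2, UGP1 and NTH1 were the genes that rose, NTH1 losing its call without C-lim replicate 3 and with the arrays of the double deletion alone. Of 25 chaperone genes, 11 fell and 3 rose (median −0.23), against 19 and 4 in the reference (median −0.49). The median in snf1Δ was −0.05. The double deletion's difference from the reference was upwards in 16, against 17.9% of all genes. KAR2, the chaperone of the endoplasmic reticulum, rose by 0.97 ± 0.05 against 0.16, and HSP31, a methylglyoxalase and chaperone gene, by 1.59 ± 0.09. SSA3, a stress-induced cytosolic chaperone of the Hsp70 family, fell 3.05-fold against 52.4-fold.

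Of 14 genes of glycerol and osmotic adjustment, 7 rose and 4 fell (median 0.29), where 1 rose and 9 fell in the reference (median −0.39). Of all genes 35.3% rose and 23.2% fell. The difference was upwards in 12, against 17.9% of all genes. GPD1, the glycerol-3-phosphate dehydrogenase that starts glycerol synthesis, rose from 10.61, 10.62 and 10.57 to 11.58, 11.69 and 11.74. STL1 (YDR536W), the glycerol and proton symporter, read 3.03, 2.97 and 2.97 in C-lim and 5.39, 5.40 and 5.20 in N-lim. Both genes had groups that did not overlap. GPD1 rose by 1.07 ± 0.09 against a reference fall of 0.37, and STL1 rose at least 5.03-fold where the reference fell at least 14.2-fold. GUT2, DAK2, GCY1 and AQY2 fell in the double deletion, AQY2 losing its call without N-lim replicate 1 and with the arrays of this strain alone.

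In the a-specific list, genes of the mating type a such as the a-factor and the receptor for the α pheromone, all 7 members rose (median 0.62). All 7 also rose in the reference, by more (median 2.80), and in snf1Δ (median 0.81). The response of the double deletion was smaller than that of the reference in each of the 7. It was called different from that of snf1Δ in none. The mean level on the double deletion's arrays was 10.441, 10.508 and 10.348 in C-lim and 11.195, 11.081 and 11.146 in N-lim. In the reference it ran from 8.437 to 8.473 in C-lim and from 11.338 to 11.434 in N-lim, so that the smaller rise went with a higher C-lim level. BAR1 (YIL015W), the protease that degrades α-factor, read 10.18, 10.27 and 9.96 in C-lim and 11.10, 10.98 and 11.11 in N-lim. It rose by 0.93 ± 0.10 (adjusted p = 1.81e-07) without overlap, while the reference rose from 7.15 to 11.01 (difference −2.94 ± 0.14, adjusted p = 1.15e-11). STE2, the α-factor receptor, rose by 0.62 ± 0.07 against 2.51. MF(ALPHA)1 (YPL187W), an α-factor gene and thus α-specific, read 6.17 on all 3 C-lim arrays and 9.44, 9.58 and 9.74 in N-lim. It rose by 3.42 ± 0.15 against 7.36 in the reference (difference −3.95 ± 0.22, adjusted p = 9.23e-11).

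Of 22 genes of the pheromone response, 18 rose and 2 fell (median 0.80), the same counts as in the reference, where the median was 1.67. FAR1, which arrests the cell cycle on pheromone, rose by 1.95 ± 0.09 against 4.10, and FIG1, a membrane protein of mating, at least 6.70-fold. PRM5 and PRM4 fell in both strains. Cell cycle genes of the G1 and S phases rose, 20 of 24 with none lower (median 0.47, against 0.68 in the reference, and 35.3% of all genes higher), as did 7 of 9 histone genes (median 0.33 against 0.38), and for no histone did the response differ from that of the reference. Of 11 genes of daughter-cell separation, 6 rose and AMN1 fell, losing its call under several alternatives.

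Lipid genes divided by pathway. Of 16 phospholipid synthesis genes, 14 rose and 1 fell (median 0.43), against 16 rises in the reference (median 1.14) and 13 in snf1Δ (median 0.36). Responses of 13 members lay below that of the reference, and none was called different from that of snf1Δ. The mean level was 9.348, 9.354 and 9.349 in C-lim, against 8.701 to 8.768 in the reference, and 9.742, 9.801 and 9.806 in N-lim, against 9.905 to 9.913. CKI1, choline kinase, rose from 7.44, 7.33 and 7.33 to 8.35, 8.27 and 8.41, by 0.98 ± 0.08 against 2.41. INO1 (YJL153C), inositol-3-phosphate synthase, was the member that fell, from 12.77, 12.84 and 12.84 to 12.59, 12.54 and 12.70, and its groups did not overlap. The fall of 0.20 ± 0.07 (adjusted p = 0.0149) lost its call without N-lim replicate 2, while the reference rose from 11.28 to 12.92 (difference −1.84 ± 0.10, adjusted p = 4.03e-11).

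Of 26 ergosterol synthesis genes, 11 rose and 2 fell (median 0.08), where 15 fell and 4 rose in the reference (median −0.49). The share higher and the median lie close to those of all genes (35.3% and 0.06). In snf1Δ 10 rose and 1 fell (median 0.12), and no response of the double deletion was called different from it. Compared with the reference, 17 responses were above and 3 below, against 17.9% and 28.8% of all genes. ERG7, lanosterol synthase, read 9.23, 9.32 and 9.33 in C-lim and 9.77, 9.62 and 9.64 in N-lim, a rise of 0.38 ± 0.07 against a reference fall of 0.75. ERG1, squalene epoxidase, read 10.98, 10.99 and 10.99 and then 11.28, 11.35 and 11.36, against a reference fall of 0.59. No array of either gene overlapped between the media. ERG12 and ERG13 were lower, ERG13 losing its call under 7 alternatives. Of 12 fatty acid synthesis genes, 8 rose and 2 fell (ELO1 and OLE1, the second losing its call without N-lim replicate 2), with medians of 0.26 here and 0.25 in the reference.

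Ribosome and growth genes moved little. Of 126 genes of cytosolic ribosomal proteins, 110 were not called, 12 fell and 4 rose, with a median of −0.03. The direction of those calls depended on the scaling, with 13 higher and 8 lower after quantile normalization and 6 higher and 5 lower without C-lim replicate 3. Of 71 ribosome biogenesis genes, 60 were not called, 8 were lower and 3 higher, against 22 lower and 5 higher in the reference. The count of 8 was 3 without N-lim replicate 1, 4 without C-lim replicate 3 and 5 without C-lim replicate 1. Of 33 proteasome genes, 25 rose and none fell, by at most 0.38 (median 0.18), and with median-centred arrays 12 rose. Of 10 vacuolar hydrolases 7 rose (median 0.31). CPS1, a vacuolar carboxypeptidase under nitrogen repression, rose most among them, by 2.09 ± 0.07, against 2.19 in the reference. Of 33 autophagy genes 7 rose and 7 fell.

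Of 15 targets of Pho4, the activator of phosphate starvation genes, 8 rose and 2 fell (median 0.56, against 1.01 in the reference), where 35.3% and 23.2% of all genes did. VTC3, a polyphosphate polymerase subunit, rose by 1.48 ± 0.06, while PHO89, the sodium-coupled phosphate transporter, fell by 2.55 ± 0.23. The other gene that fell, SPL2, lost its call under several alternatives. Of 14 genes of thiamine and pyridoxine, 10 rose and 3 fell (SNZ3, THI13 and SNO3). Of 6 biotin genes the 4 called were lower, namely VHT1 (the biotin transporter), BIO2, BIO3 and BIO4. Of 19 genes of purine synthesis and one-carbon metabolism 9 rose, and IMD2 and ADE12 fell. The lists of meiosis and sporulation (5 of 19 higher, 4 lower) and of flocculins and adhesins (6 of 15 higher, with TIR3 and FLO11 lower) had no shared direction. Of 6 genes in use as auxotrophic markers, ADE2 rose and HIS3 and MET17 fell, by 0.68 ± 0.07 at most, and MET17 lost its call under 6 alternatives.

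Among the regulators themselves, 24 of 54 rose and 12 fell (median 0.14), against 33 and 9 in the reference (median 0.44). The shares in the double deletion lie near the 35.3% and 23.2% of all genes. The activators that act below Snf1 fell. ADR1 read 7.30, 7.49 and 7.24 in C-lim and 4.62, 4.53 and 4.62 in N-lim, a fall of 2.75 ± 0.14 that was not separated from the 3.04 of the reference (adjusted p = 0.267). CAT8 read 6.30, 6.32 and 6.23 and then 4.94, 4.73 and 4.92, a smaller fall than in the reference (−1.42 ± 0.11 against −2.30, adjusted p of the difference 0.000106). SIP4, an activator of gluconeogenic genes, fell by 3.55 ± 0.28. No gene of the 3 overlapped between media. MTH1, a corepressor of hexose transporter genes, fell by 2.54 ± 0.14, and its paralogue STD1 rose by 1.26 ± 0.13 against 2.99. MIG1 did not pass the test (0.14, adjusted p = 0.214), but passed with the arrays of the double deletion fitted alone (limma adjusted p = 0.0188). SNF4, the activating subunit of the Snf1 complex, read 9.28 to 9.38 in C-lim and at most 9.28 in N-lim (adjusted p = 0.074), where the reference rose by 0.60. The SNF4 difference passed with median-centred arrays (−0.21, limma adjusted p = 0.0174) and without N-lim replicate 3.

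Of the GATA factors, GAT1 rose by 1.48 ± 0.10, from 9.09, 9.03 and 9.33 to 10.67, 10.56 and 10.65, against 1.69 in the reference. GLN3 read 6.29, 6.36 and 6.18 in C-lim and 6.27, 6.24 and 6.34 in N-lim, overlapping groups that did not differ by the test (adjusted p = 0.972). GZF3, a repressor of the family, rose by 0.84. Of the TORC1 subunits, KOG1 rose by 0.43 ± 0.09 (0.91 in the reference) and LST8 fell by 0.60 ± 0.09 (−0.08 in the reference).

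In all, 270 genes (4.96%) were called with opposite signs in the double deletion and the reference, 140 of them higher and 130 lower in the double deletion, and 10 changed at least 2-fold in both. STL1, CTT1, PNS1 and HXT4 were among the largest. PNS1 (YOR161C), a plasma membrane protein gene, read 4.84, 5.20 and 4.66 in C-lim and 7.24, 7.20 and 7.31 in N-lim. It rose by 2.35 ± 0.17 without overlap, against a reference fall of 1.26. PHM7 (1.56 against −1.39), RTC3 (0.99 against −2.57) and the thiamine gene THI4 (1.06 against −1.87) also rose where the reference fell. UTR2, a cell wall glycosyltransferase gene, went the other way (−0.77 against 1.46), with FET3, CIT2 and MLS1. SIT1, an iron carrier transporter gene, also did so, but lost its call with the replicate block (adjusted p = 0.0612) and without C-lim replicate 3, N-lim replicate 2 or N-lim replicate 3.

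Genes with the largest differences from the reference response had C-lim levels that stood apart from it. RGI2, ADH2, FDH1 (formate dehydrogenase), YDL218W, ADY2, FAT3 and YIG1 were at the bottom of the scale in both media in the double deletion, while their C-lim means in the reference were 12.16, 13.11, 11.75, 11.05, 10.97, 9.44 and 9.71. Of these, ADH2, FDH1, ADY2 and FAT3 also lay far below the reference in C-lim of snf1Δ. There ADH2 read 6.73, 3.50 and 4.47, and FAT3 read 3.07, 2.47 and 2.47. EEB1 (YPL095C), a medium-chain acyltransferase gene, was instead high in both media of the double deletion, at 11.59, 11.66 and 11.39 and then 11.86, 11.97 and 11.80, where the reference rose from 7.05 to 12.33. In snf1Δ EEB1 was high as well, at 11.16, 11.54 and 11.50 and then 11.96, 12.02 and 12.04. PTR2 (YKR093W), the peptide transporter, read 8.20, 8.36 and 8.28 in C-lim and 9.87, 9.93 and 9.90 in N-lim of the double deletion. It rose 3.08-fold, against 101-fold in the reference from a C-lim mean of 4.19 (difference −5.03 ± 0.26, adjusted p = 4.01e-11).

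**Figure D5:**
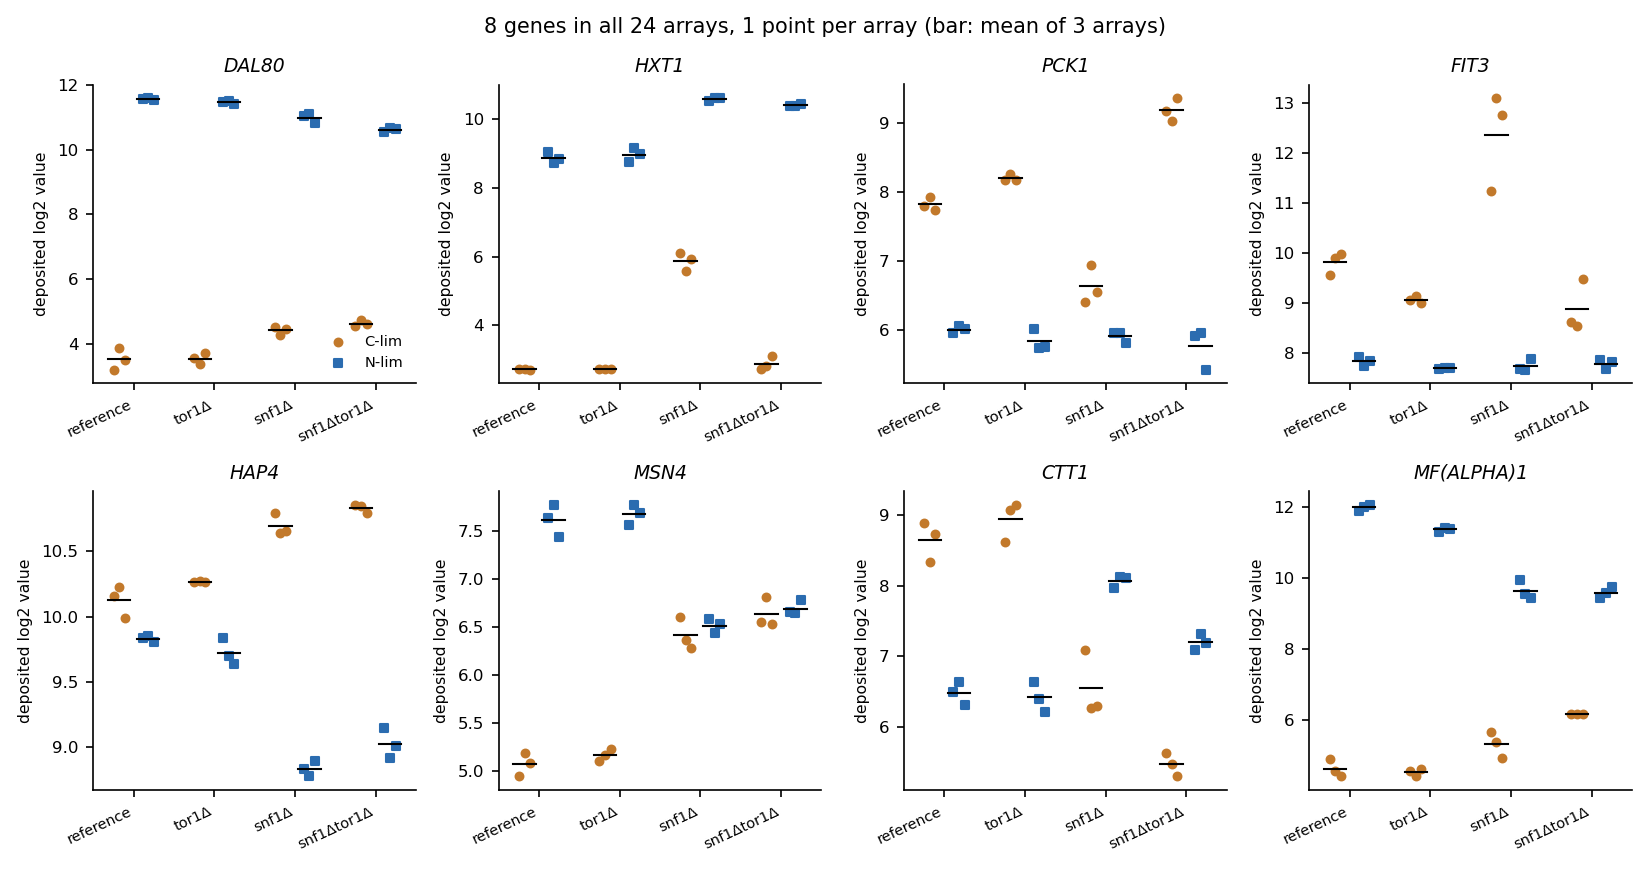
Log2 level of DAL80, HXT1, PCK1, FIT3, HAP4, MSN4, CTT1 and MF(ALPHA)1 on each array, by strain and medium; points are single arrays and bars the group means. HXT1 and PCK1 in C-lim separate the double deletion from snf1Δ, and FIT3 is highest in snf1Δ in C-lim.

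The effect of losing TOR1 in cells without SNF1 was tested as the difference between the responses of the double deletion and snf1Δ. It was upwards in 161 genes (2.95%) and downwards in 107 (1.96%), and at least 2-fold in 26 (0.477%) and 28 (0.514%). The block left 17 and 13, and leaving out single arrays of either strain gave 80 to 170 and 63 to 143, with the lowest counts, 80 and 63, without C-lim replicate 1 of the double deletion. HXT1 rose at least 170-fold, from the bottom of the scale, and 26.4-fold in snf1Δ, where its means were 5.87 in C-lim and 10.59 in N-lim (adjusted p of the difference 6.16e-09). AAD6 (YFL056C), an aryl-alcohol dehydrogenase gene, read 4.47, 4.59 and 4.43 in C-lim and 7.04, 7.43 and 7.52 in N-lim. It rose by 2.83 ± 0.29 without overlap, while in snf1Δ it was high in both media, at means of 6.97 and 7.02 (difference 2.78 ± 0.41, adjusted p = 0.000551). PCK1 fell further than in snf1Δ, where its C-lim mean was 6.64 (difference −2.69 ± 0.19, adjusted p = 7.26e-08). MLS1 responded below snf1Δ as well (difference −1.87 ± 0.21, adjusted p = 3.24e-05). FBP1 was at the bottom of the scale in N-lim in both strains, so its falls are bounds, at least 10.2-fold here and at least 2.46-fold in snf1Δ. CTR3 (YLR411W), a copper transporter, read 11.12, 11.07 and 10.84 in C-lim and 8.97, 9.10 and 9.11 in N-lim. It fell by 1.95 ± 0.18, while in snf1Δ the difference was 0.12 (adjusted p = 0.615; difference between responses −2.07 ± 0.25, adjusted p = 9.69e-05).

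More iron uptake genes had a response above that of snf1Δ than below it, by a count that depended on the arrays. Of 23 genes, 9 fell and 4 rose in the double deletion (median −0.26), 15 fell and 1 rose in snf1Δ (median −0.88, where 23.0% of all genes were lower and 32.4% higher), and 12 rose and 3 fell in the reference (median 0.30). The 9 falls were 5 without C-lim replicate 3. The response differed from that of snf1Δ upwards in 13 members and downwards in 1. With the block these counts were 1 and 1, with dim genes left out 6 and 0, and the 13 became 5 without C-lim replicate 1, 8 without C-lim replicate 2 and 7 without N-lim replicate 1 of the double deletion. It became 8 without C-lim replicate 12 and 7 without N-lim replicate 9 or 10 of snf1Δ. The mean level of the list in C-lim was 6.247, 6.263 and 6.423 in the double deletion and 6.637, 7.485 and 7.270 in snf1Δ, against 5.880 to 5.930 in the reference, and its N-lim values were 6.018, 5.994 and 5.946 in the double deletion and 5.982, 6.011 and 6.114 in snf1Δ. FIT3 (YOR383C), a cell wall mannoprotein that holds iron carriers, read 8.61, 8.53 and 9.48 in C-lim and 7.85, 7.68 and 7.82 in N-lim. It fell by 1.09 ± 0.32 (adjusted p = 0.00689) and lost the call without C-lim replicate 3 (−0.79, adjusted p = 0.052), while snf1Δ fell from 12.37 to 7.74 (difference 3.54 ± 0.45, adjusted p = 0.000127). FIT2, a related gene, fell by 3.77 ± 0.32 against 6.39 in snf1Δ (difference 2.63 ± 0.46, adjusted p = 0.00256, and 0.0736 with the block). FET4, the low-affinity iron transporter, rose by 2.21 ± 0.18, less than in snf1Δ (difference −2.00 ± 0.25, adjusted p = 0.000113).

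The effect of losing SNF1 in cells without TOR1 was tested against the response of tor1Δ, and was upwards in 1012 genes (18.6%) and downwards in 1243 (22.8%). It was at least 2-fold in 480 genes (8.81%), upwards in 313 (5.74%) and downwards in 167 (3.06%). ADH2, FDH1 and RGI2 were at the bottom of the scale in both media of the double deletion and in N-lim of tor1Δ, so no size is given, and their C-lim means in tor1Δ were 13.11, 11.90 and 11.98. YGR035C (−5.65), EEB1 (−5.00) and PTR2 (−4.51) were among the largest downwards. Of the 311 genes that rose at least 2-fold in tor1Δ (5.71% of all genes), 88.4% also rose in the double deletion, and of the 380 that fell (6.97%), 65.0% also fell. For snf1Δ the shares were 97.1% of 172 (3.16% of all genes) and 95.3% of 275 (5.05%). From the side of the double deletion, 83.0% of its 159 and 93.9% of its 279 were called in the same direction in tor1Δ, and 96.2% and 97.1% in snf1Δ.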

How the data were processed

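RNA from the 24 cultures was hybridised to Affymetrix yeast arrays. The authors deposited 1 table of log2 values, made with RMA in the affy package per the submitters' processing notes. The sources used here name neither the versions nor the arrays that were normalized together. RMA summarises the probes of a set, forces arrays to 1 distribution and compresses dim signals. The values ran from 2.02 to 14.31 and the array medians from 7.8 to 7.99.

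Of 5716 probe sets, 5498 had 1 gene in the platform annotation and 218 were not listed there. Where a gene had more than 1 probe set (47 genes), the brightest was kept, and 12 symbols were updated through RefSeq, which left 5449 genes. limma 3.58.1 in R 4.3.3 fitted 8 group means over the 24 arrays (16 residual degrees of freedom), with Benjamini-Hochberg adjustment over all genes and a threshold of 0.05. Differences between the responses of strains were contrasts of this fit, which was also tested on simulated data. A group mean under log2 3 was taken as the bottom of the scale, folds against it were written as "at least", and no fold was given where both media lay there. Tables and plots were made with Python 3.11.15, pandas 2.3.3 and matplotlib 3.10.9.

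The comparison and the 42 gene lists were chosen with earlier results of these data known, so counts over a list carry no test of their own and are to be read against the shares of all genes. Genes were named by rule, namely the 20 largest changes each way, the 10 largest differences each way from the reference and 5 each way from each single deletion, genes with opposite responses, regulators, and up to 5 members of each list. Groups and replicate numbers came from the sample titles.

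Replicate numbers were checked for pairing by the correlation of deviations from the group means. Samples of the same number correlated at 0.136, 0.199 and 0.12 in the double deletion (other pairs −0.122 to 0.0216) and at 0.231, 0.372 and 0.287 in the reference, so the numbers were taken to pair these samples. In snf1Δ the shared numbers gave −0.206 and −0.292, so these were not taken as pairs. In tor1Δ the single shared number gave 0.202, while pairs of unlike number gave up to 0.242. Since only 1 number is shared, pairing in tor1Δ could not be settled, and its numbers were not taken as pairs. The alternatives were a block for strain and number, the arrays of the compared strains alone, median centring, quantile normalization, leaving out 1362 dim genes, an intensity trend, the mean of probe sets, a 2-fold limit and leaving out single arrays.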

Additional observations from a re-analysis of the deposited data

Results flagged for a closer look

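The results here were picked out because limma's test of the difference between 2 strains' responses passed, and each value is the response of the double deletion minus that of the other strain on the log2 scale. Explanations were not tested.

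Against the reference, 2543 genes differed. The highest fitted values were at RGI2 (9.34), ADH2 (8.87), FDH1 (8.74), YDL218W (8.59), ADY2 (8.36), GRE1 (7.25), SPS100 (7.09), FAT3 (7.03), YIG1 (6.86) and PAU3 (6.31). RGI2, ADH2, FDH1, YDL218W, ADY2, FAT3 and YIG1 were at the bottom of the scale in both media of the double deletion, so their values rest on the floor and have no order among themselves. On N-lim replicate 9 of the reference ADH2 read 7.07, GRE1 6.35 and FDH1 4.19. On N-lim replicates 10 and 11 ADH2 read 2.64 and 2.76, GRE1 3.87 and 3.87, and FDH1 2.42 and 2.22. The reference means behind these fitted values include that higher array. The lowest fitted values were at YGR035C (−6.46), YGR109W-A (−5.13), PTR2 (−5.03), EEB1 (−4.95), YJL213W (−4.32), MF(ALPHA)1 (−3.95), SPS4 (−3.92), RSB1 (−3.90), IRC7 (−3.63) and YJL218W (−3.41). YGR109W-A in C-lim of the reference and RSB1 in both media of the double deletion were also at the bottom of the scale.

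Against snf1Δ, 268 genes differed. FIT3 (3.54), RGI2 (3.19), HXT1 (2.81), AAD6 (2.78) and FIT2 (2.63) had the highest fitted values, and PCK1 (−2.69), CTR3 (−2.07), FBP1 (−2.00), FET4 (−2.00) and MLS1 (−1.87) the lowest. The values of RGI2, HXT1 and FBP1 rest on the floor, RGI2 in both media of the double deletion and in N-lim of snf1Δ, HXT1 in C-lim of the double deletion and FBP1 in N-lim of both strains, so their sizes and ranks are not measured. Without C-lim replicate 10 of snf1Δ the value of RGI2 was 2.46. With the replicate block the calls of RGI2 (3.38, adjusted p = 0.12) and FIT2 (2.47, adjusted p = 0.0736) were lost. The iron genes FIT3 and FIT2 were highest on C-lim replicate 3 among the C-lim arrays of the double deletion.

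Against tor1Δ, 2255 genes differed. ADH2 (10.36), FDH1 (9.67), RGI2 (9.66), YDL218W (8.66) and ADY2 (8.52) had the highest fitted values, and YGR035C (−5.65), EEB1 (−5.00), YGR109W-A (−4.81), PTR2 (−4.51) and YJL213W (−4.24) the lowest. The upward genes were at the bottom of the scale in both media of the double deletion and in N-lim of tor1Δ, so their values rest on the floor and have no order. YGR109W-A was at the bottom of the scale in C-lim of tor1Δ.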

How the results depend on the processing

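The counts of 1925 higher and 1266 lower genes in the double deletion ran from 1539 to 1932 and from 1037 to 1504 over the alternatives other than the 2-fold limit. With 1 array of the double deletion left out they ran from 1742 to 1848 and 1151 to 1258. Median centring gave 1597 higher and 1504 lower. With the 2-fold limit the counts were 159 and 279, those of the difference from the reference 302 and 228, from snf1Δ 26 and 28, and from tor1Δ 313 and 167. With the replicate block the difference from snf1Δ kept 17 higher and 13 lower genes and that from tor1Δ 608 and 786, while the block moved no other of these counts by over 1.5 times (1829 and 1212 for the double deletion, 897 and 1435 against the reference). The numbers were not taken to pair the arrays of snf1Δ and tor1Δ, and arrays without a shared number add nothing to the responses in the block fit. The block leaves 5 residual degrees of freedom. Without dim genes 94 genes were higher against snf1Δ. With 1 array left out that difference held 80 to 170 higher and 63 to 143 lower genes. It held 80 and 63 without C-lim replicate 1 of the double deletion, 120 and 67 without its C-lim replicate 2, 86 and 69 without N-lim replicate 10 of snf1Δ, and 101 and 85 without N-lim replicate 9 of snf1Δ. The share of the reference's 2-fold rises also called in the double deletion was 81.1% after centring and 89.4% without dim genes (83.2% to 85.1% with 1 array left out). The share of its falls was 70.9% and 72.6% (59.6% to 66.9%, the lowest without N-lim replicate 3). The count of 270 opposite responses, added after the data were seen, was 219 to 278, and 241 to 268 with 1 array left out. For these shares and this count only arrays of the double deletion were left out. Their dependence on single reference arrays was not checked. Of 335 named genes 307 were called in the double deletion. Of these, 271 kept the call under every setting in which they were tested, and 36 lost it under some setting. Named genes that are dim have no value in the setting without dim genes. None reversed. Some named genes that were not called in the double deletion, MIG1, SNF4 and TOR2 among them, passed under an alternative. Values near the bottom of the scale limit folds, and 330 genes lay there in both media of the double deletion. In the difference from the reference, 6 higher and 4 lower genes of the flocculin list became 0 and 2 without dim genes.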
